A study of Mus musculus with 16 samples.

Results

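CCAAT/enhancer-binding proteins (C/EBPs) are transcription factors with a basic region and a leucine zipper, encoded in the mouse by Cebpa, Cebpb, Cebpd, Cebpe and Cebpg. These genes were described in the beating mouse atrial muscle line HL-1 after treatment with a glucocorticoid, an estrogen or both. Array probes were assigned to genes through their RefSeq accession, and each gene was represented by the probe with the highest mean signal. Of the 5 genes, 4 had such a probe and were among the 17771 genes kept for testing. These were Cebpa, Cebpb, Cebpd and Cebpg. Cebpe was not analysed here.

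C/EBPs bind DNA as pairs of family members, and C/EBPγ, which has no strong activation domain, can hold its partners in less active pairs. In preadipocytes the β and δ forms appear within hours of hormonal stimulation and precede C/EBPα, and glucocorticoids and cAMP are the classical inducers of the δ and β genes. C/EBPβ and C/EBPδ are also known for switching on acute phase genes in liver, C/EBPα for granulocyte and fat cell maturation, and C/EBPε for late granulocyte development. In the heart, lowered C/EBPβ is known from mice as a feature of exercise-induced growth.

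RNA was taken after 6 h with 100 nM dexamethasone (Dex, a synthetic glucocorticoid) plus 10 nM estradiol (E2), with 100 nM Dex alone, with 10 nM E2 alone, or with vehicle (PBS), and each treatment had 4 single-colour arrays. All 16 samples came from HL-1 cells grown in Claycomb medium, and the design text speaks of 4 independent experiments. HL-1 cells descend from an atrial tumour of a mouse that carried a viral oncogene under an atrial promoter, so they divide, unlike adult atrial myocytes. The series title concerns antagonism between the hormones. A level below is log2 of the processed signal minus log2 of the array's 75th percentile, so 1 unit is a doubling and 0 stands for that percentile. The percentile was 402 to 557 intensity units, 58.6% to 65.6% of probes were well above background, and 0 were saturated. Any pair of arrays correlated at 0.9727 or more across the genes kept for testing. All 10 atrial cardiomyocyte markers were detected, among them Myl7, Tnnt2 and Actc1 on 16 of 16 arrays and Tnni3 on 15.

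Before the C/EBP genes are described, 4 arrays need mention because a glucocorticoid target went against their labels. Per1, a clock gene with well-studied glucocorticoid response elements (probe A_52_P79889), lay above 0 on Dex+E2 1, 2 and 4, on Dex 1, 2 and 4, on E2 4 and on Vehicle 4, between 1.75 and 1.99. It lay below 0 on the other 8 arrays, between -1.29 and -0.75. The arrays labelled Dex+E2 3 and Dex 3 were thus in the low set, and those labelled E2 4 and Vehicle 4 in the high set. The sets are called Per1-high and Per1-low below. They were defined by a measured level, so they are described by their ranges and medians, and no test was made between them. Tests between labels are given over all 16 arrays and over the 12 arrays without these 4. The 4 arrays were picked by their Per1 level, which makes the p-values from 12 arrays a description and not an independent test.

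Promoter sequences are shown for Cebpb, whose level differed strongly among the arrays, and for Cebpg, whose level hardly did. RefSeq promoter windows (build GRCm38.p6) were matched for 3 of the 5 genes, Cebpa, Cebpb and Cebpg, and not for Cebpd and Cebpe. Each sequence below covers the 250 bases before the annotated start, 5′ to 3′ on the strand of the gene, and capitals mark the half-site of the cAMP response element (CRE), TGACG or its reverse complement CGTCA.
Cebpb, chr2:167688665-167688914, plus strand: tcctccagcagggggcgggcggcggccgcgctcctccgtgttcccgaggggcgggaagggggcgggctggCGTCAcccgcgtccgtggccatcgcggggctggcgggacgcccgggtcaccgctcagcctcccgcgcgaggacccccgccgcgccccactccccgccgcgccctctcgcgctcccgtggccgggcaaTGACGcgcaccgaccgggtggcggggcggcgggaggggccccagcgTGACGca
Cebpg, chr7:35056567-35056816, minus strand: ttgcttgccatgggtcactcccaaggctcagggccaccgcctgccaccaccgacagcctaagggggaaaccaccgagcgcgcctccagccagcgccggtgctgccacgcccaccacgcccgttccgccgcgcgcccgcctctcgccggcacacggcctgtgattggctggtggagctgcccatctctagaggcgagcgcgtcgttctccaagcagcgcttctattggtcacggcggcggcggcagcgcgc

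The Cebpb window held 3 CRE half-sites, 180 to 176, 53 to 49 and 7 to 3 bases before the start, and the Cebpg window held 0. The Cebpb promoter is known for CRE-like elements close to its start that bind CREB. At least 1 such half-site stood in 17.8% of the 32851 promoter windows of the same length, counted on both strands. Cebpb also held 5 matches to the Sp1 letters GGGCGG, of which the outermost pair overlap, and 32.7% of windows held at least 1. Cebpg held 2 CCAAT boxes (CCAAT or ATTGG), the motif after which the family was named, as did 33.8% of windows at least once. The half-site of the glucocorticoid receptor, AGAACA or TGTTCT, was not among the letters of either window and stood in 16.1% of all windows. The palindromic glucocorticoid response element, searched by name on both strands, was not among them either and stood in 0.167% of windows. The C/EBP motif TTNNGNAA (36.8% of windows) and the STAT motif TTCNNNGAA (7.02%) were not in them. GC content was 81.6% for Cebpb and 70.8% for Cebpg. The Cebpa window, with 66.4% GC, held a TATA box (TATAAA, in 12.4% of windows) 30 to 25 bases before the start. Cebpg and Cebpa are neighbours on chromosome 7, with the non-coding gene Gm35611 between them and 0 protein-coding genes.

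Cebpd, the gene of the δ form, had high levels on 3 of the 4 arrays of each Dex-containing label and on 1 array of each other label. It measured 4.12, 4.25, 3.01 and 4.07 on Dex+E2 1 to 4. On Dex 1 to 4 it measured 4.20, 4.11, 2.97 and 4.22. The low array was number 3 in both labels. On E2 1 to 4 it measured 2.37, 2.56, 2.86 and 4.47. On Vehicle 1 to 4 it measured 2.84, 2.67, 2.61 and 4.40. The high array was number 4 in both of these, so the 4 labels overlapped. The means were 3.86 ± 0.57 for Dex+E2, 3.87 ± 0.61 for Dex, 3.07 ± 0.96 for E2 and 3.13 ± 0.85 for vehicle (SD, n = 4 each). In the order Dex, Dex+E2, vehicle and E2, no neighbouring means lay further apart than the larger SD of the pair.

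Cebpb, the gene of the β form, followed the same arrays. It measured 0.58, 0.66, -0.62 and 0.85 on Dex+E2 1 to 4. On Dex 1 to 4 it measured 0.67, 0.76, -0.50 and 0.72. On E2 1 to 4 it measured -0.91, -0.49, -0.67 and 0.82. Again 1 array in each label stood apart, number 3 under the Dex-containing labels and number 4 under E2. On Vehicle 1 to 4 it measured -0.68, -0.58, -0.84 and 0.62. The means were 0.37 ± 0.67 for Dex+E2, 0.41 ± 0.61 for Dex, -0.31 ± 0.77 for E2 and -0.37 ± 0.67 for vehicle (SD, n = 4 each). Dex and Dex+E2 were closest in level, as were E2 and vehicle, and the order was Dex, Dex+E2, E2 and vehicle, with no neighbours further apart than the larger SD.

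Cebpg, the gene of the γ form, stayed within 0.35 of itself over all 16 arrays. It measured 0.68, 0.73, 0.93 and 1.03 on Dex+E2 1 to 4 and 0.76, 0.72, 0.96 and 0.88 on Dex 1 to 4. On E2 1 to 4 it measured 0.74, 0.68, 0.90 and 0.78, and on Vehicle 1 to 4 it measured 0.81, 0.68, 0.85 and 0.87. The labels overlapped throughout. The order of the means was Dex+E2 at 0.84 ± 0.16, Dex at 0.83 ± 0.11, vehicle at 0.80 ± 0.08 and E2 at 0.78 ± 0.09 (SD, n = 4 each), and all neighbours lay closer than their SDs. Its other probes, A_52_P438082 and A_51_P521216, ranged over 0.61 and 0.78 across the 16 arrays and were well above background on all of them.

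Cebpa, the gene of the α form, was barely above background. Its probe gave 7.18 to 26.4 intensity units and was well above background on 13 of 16 arrays, and its other probe on 0 of 16. It was not well above background on Dex+E2 4, Dex 3 and Dex 4. The levels were -5.19, -4.98, -5.28 and -5.99 on Dex+E2 1 to 4 and -5.47, -5.87, -5.71 and -5.77 on Dex 1 to 4. On E2 1 to 4 they were -4.24, -5.25, -5.11 and -5.28, and on Vehicle 1 to 4 they were -4.97, -5.93, -5.39 and -5.67. The label means ran from E2 at -4.97 ± 0.49 through Dex+E2 at -5.36 ± 0.44 and vehicle at -5.49 ± 0.41 to Dex at -5.71 ± 0.17 (SD, n = 4 each), each neighbour within the larger SD.

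**Figure D1:**
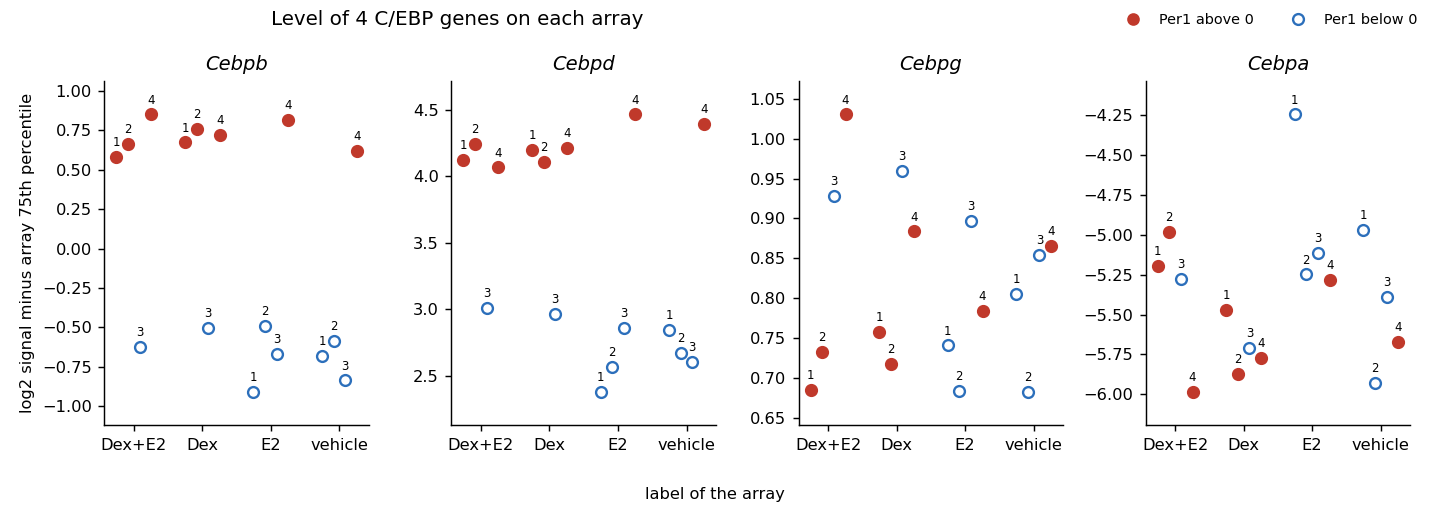
Level of Cebpb, Cebpd, Cebpg and Cebpa (y axis, log2 signal minus the array's 75th percentile) on each array, by label (x axis), with the array number above each point. Filled points are arrays with Per1 above 0 and open points those below 0. Cebpb and Cebpd fall into separate bands by fill, while Cebpg and Cebpa do not, and each panel has its own scale.

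Set against Per1, Cebpd lay between 4.07 and 4.47 on the 8 Per1-high arrays (median 4.21) and between 2.37 and 3.01 on the 8 Per1-low arrays (median 2.76). In intensity this was 7014 to 10344 units on the Per1-high arrays and 2590 to 3991 units on the Per1-low arrays. The lowest Per1-high array stood 1.06 above the highest Per1-low array, a 2.08-fold gap. Cebpb lay between 0.58 and 0.85 on the Per1-high arrays (median 0.69) and between -0.91 and -0.49 on the Per1-low arrays (median -0.65), or 601 to 978 against 266 to 360 intensity units. Its gap was 1.07, or 2.10-fold.

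Neither Cebpg nor Cebpa separated. Cebpg spanned 0.68 to 1.03 on the Per1-high and 0.68 to 0.96 on the Per1-low arrays, and Cebpa spanned -5.99 to -4.98 and -5.93 to -4.24. So 2 of the 4 measured C/EBP genes had no overlap between the sets. Over all genes with a value on every array, 712 of 17529 (4.06%) had none, 353 of them higher and 359 lower on the Per1-high arrays. Per1, which defined the sets, had a 5.64-fold gap.

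Arrays 3 and 4 of a label lay on the same slide in all 4 labels, and they always fell in different sets. Array 4 stood above array 3 in Cebpd by 1.06 within Dex+E2, 1.25 within Dex, 1.61 within E2 and 1.79 within vehicle. In Cebpb the same difference was 1.47 within Dex+E2, 1.22 within Dex, 1.48 within E2 and 1.45 within vehicle. These differences arise between arrays of a single label and slide. Arrays 2 and 1 of a label, which also shared a slide, differed by -0.17 to 0.19 in Cebpd and by 0.08 to 0.42 in Cebpb. For Cebpg, array 4 minus array 3 ran from -0.11 to 0.10.

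Within either set, the correlation of Cebpb and Cebpd did not pass the test. On the 8 Per1-high arrays Pearson's r was -0.05 (exact permutation p = 0.911, 0.911 after Benjamini-Hochberg adjustment over the 2 sets) and Spearman's rho was -0.24 (exact permutation p = 0.582). On the 8 Per1-low arrays r was 0.54 (exact permutation p = 0.174, adjusted 0.349) and rho was 0.31 (exact permutation p = 0.462). Without the 2 arrays of a set farthest from its median of Cebpd, r was -0.49 on the Per1-high and 0.18 on the Per1-low arrays. All tests are two-sided, and no r was taken over both sets together.

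**Figure D2:**
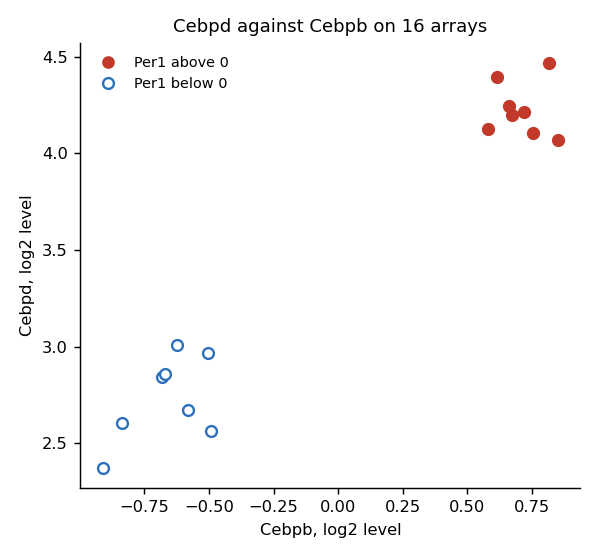
Level of Cebpd (y axis) against level of Cebpb (x axis), both log2 signal minus the array's 75th percentile, 1 point per array. The Per1-high arrays (filled) lie at 0.58 to 0.85 in Cebpb and 4.07 to 4.47 in Cebpd, the Per1-low arrays (open) at -0.91 to -0.49 and 2.37 to 3.01, with no array between the clusters.

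The comparison of Dex with vehicle asked how the C/EBP genes respond to the glucocorticoid. Over all 16 arrays Cebpb was 0.78 ± 0.43 higher with Dex (SE, 95% interval -0.14 to 1.70) and Cebpd 0.74 ± 0.48 higher (SE, interval -0.29 to 1.77). Neither passed the limma test, with adjusted p = 0.518 for Cebpb and adjusted p = 0.569 for Cebpd. Cebpg differed by 0.03 (interval -0.15 to 0.21) and Cebpa by -0.22 (interval -0.80 to 0.37). At an adjusted p under 0.05, limma called 0 of 17771 genes (0%), and 1933 had an unadjusted p under 0.05.

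Without the 4 arrays whose Per1 went against the label, Cebpb was 1.42 ± 0.12 higher with Dex (SE, 2.67-fold, limma adjusted p = 6.31e-05) and Cebpd 1.47 ± 0.11 higher (SE, 2.77-fold, limma adjusted p = 4.77e-05). All 3 remaining Dex arrays lay above all 3 remaining vehicle arrays for both genes. Cebpg differed by 0.01 (interval -0.22 to 0.23) and Cebpa by -0.28 (interval -1.05 to 0.50). So 2 of 4 members were called, where 432 of 17771 genes (2.43%) were called in all, 239 higher and 193 lower.

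Slide 1 was the only slide with both labels. It held Dex 1 and 2 and Vehicle 1 and 2, none of which went against its label. Cebpd was 1.40 ± 0.09 higher on the Dex arrays (SE, 2.63-fold, limma adjusted p = 0.0325) and Cebpb 1.35 ± 0.09 higher (SE, 2.54-fold, limma adjusted p = 0.0378). Cebpg differed by -0.01 (interval -0.23 to 0.22) and Cebpa by -0.22 (interval -1.29 to 0.84). Limma called 45 genes (0.253%), 39 higher and 6 lower, so 2 of the 39 were C/EBP genes. Leaving out 1 of the 4 arrays gave 0 to 6678 called genes, and without Dex 1 the adjusted p was 0.534 for Cebpb (difference 1.39) and 0.460 for Cebpd (1.35), and without Dex 2 it was 0.527 for Cebpb and 0.353 for Cebpd (1.44), whereas without Vehicle 1 or without Vehicle 2 it was 0.000143 or lower for both genes; each of these fits leaves a label with 1 array, assumed to vary like the pair of the other label. Both calls were also lost with no filter on dim probes (adjusted p = 0.0728 each) and with no variance trend (0.0925 for Cebpb and 0.111 for Cebpd), and Cebpd's was lost with normexp background correction (difference 1.05, adjusted p = 0.764). Position on the slide and label cannot be told apart here.

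The comparison of Dex+E2 with E2 asked the same of Dex in the presence of the estrogen. Over all 16 arrays Cebpb differed by 0.68 ± 0.43 and Cebpd by 0.80 ± 0.48 (SE), both with a limma adjusted p of 1.00, and 0 genes were called (0%), 714 at an unadjusted p under 0.05. Over the 12 arrays Cebpb was 1.39 ± 0.12 higher with Dex+E2 (SE, 2.61-fold, limma adjusted p = 6.76e-05) and Cebpd 1.55 ± 0.11 higher (SE, 2.92-fold, limma adjusted p = 2.95e-05). Cebpg differed by 0.04 and Cebpa by -0.52 (interval -1.29 to 0.26). There 343 genes (1.93%) were called, 224 higher and 119 lower. On slide 4, the only slide with both labels, 1 array of each label was among the 4 whose Per1 went against it, and the differences were 0.04 for Cebpb and -0.12 for Cebpd.

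Dex+E2 and vehicle shared no slide. Over all 16 arrays Cebpb was 0.74 ± 0.43 and Cebpd 0.73 ± 0.48 higher with Dex+E2 (SE), with limma adjusted p = 0.715 and 0.716, and 0 genes were called (0%), 989 at an unadjusted p under 0.05. Over the 12 arrays the differences were 1.40 for Cebpb (2.63-fold, limma adjusted p = 6.27e-05) and 1.44 for Cebpd (2.71-fold, limma adjusted p = 4.96e-05), among 460 called genes (2.59%). This comparison shares its vehicle arrays with that of Dex and its Dex+E2 arrays with that of Dex+E2 and E2.

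With E2 alone no C/EBP gene passed the threshold. Over all 16 arrays the differences from vehicle were 0.06 for Cebpb (95% interval -0.86 to 0.98), -0.06 for Cebpd (-1.09 to 0.97), -0.03 for Cebpg (-0.21 to 0.16) and 0.52 for Cebpa (-0.07 to 1.11). Over the 12 arrays the intervals were narrower, with 0.01 for Cebpb (-0.24 to 0.26), -0.11 for Cebpd (-0.36 to 0.14) and -0.01 for Cebpg (-0.23 to 0.22). Cebpa differed by 0.56 there (-0.21 to 1.34). The highest Cebpa level, on E2 1, was 26.4 intensity units. Limma called 0 genes (0%) over 16 arrays, 682 at an unadjusted p under 0.05, and 0 (0%) over 12, 1003 at that level. On slide 2, which held E2 1 and 2 with Vehicle 3 and 4, the differences were -0.59 for Cebpb and -1.03 for Cebpd, and Vehicle 4 was the Per1-high array there.

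The series title speaks of antagonism, which bears on whether E2 altered the level reached with Dex. Dex+E2 minus Dex over all 16 arrays was -0.04 for Cebpb (95% interval -0.97 to 0.88), -0.01 for Cebpd (-1.04 to 1.02), 0.01 for Cebpg (-0.17 to 0.20) and 0.35 for Cebpa (-0.24 to 0.93). Over the 12 arrays it was -0.02 for Cebpb (-0.27 to 0.23), -0.03 for Cebpd (-0.28 to 0.22), 0.03 for Cebpg (-0.20 to 0.26) and 0.32 for Cebpa (-0.46 to 1.09). On slide 3, with Dex+E2 1 and 2 beside Dex 3 and 4, it was 0.51 for Cebpb and 0.59 for Cebpd, and Dex 3 was the Per1-low array there. Limma called 0 genes in this comparison over 16 arrays (0%, 567 at an unadjusted p under 0.05) and 0 over 12 (0%, 432 at that level).

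The interaction, the Dex difference with E2 minus that without, was -0.10 for Cebpb (95% interval -1.40 to 1.20) and 0.05 for Cebpd (-1.40 to 1.51) over all 16 arrays. Over the 12 arrays it was -0.03 for Cebpb (-0.39 to 0.33), 0.08 for Cebpd (-0.28 to 0.43), 0.04 for Cebpg (-0.29 to 0.36) and -0.24 for Cebpa (-1.34 to 0.85). Limma called 0 genes over 16 arrays (0%, 661 at an unadjusted p under 0.05) and 0 over 12 (0%, 754 at that level).

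**Figure D3:**
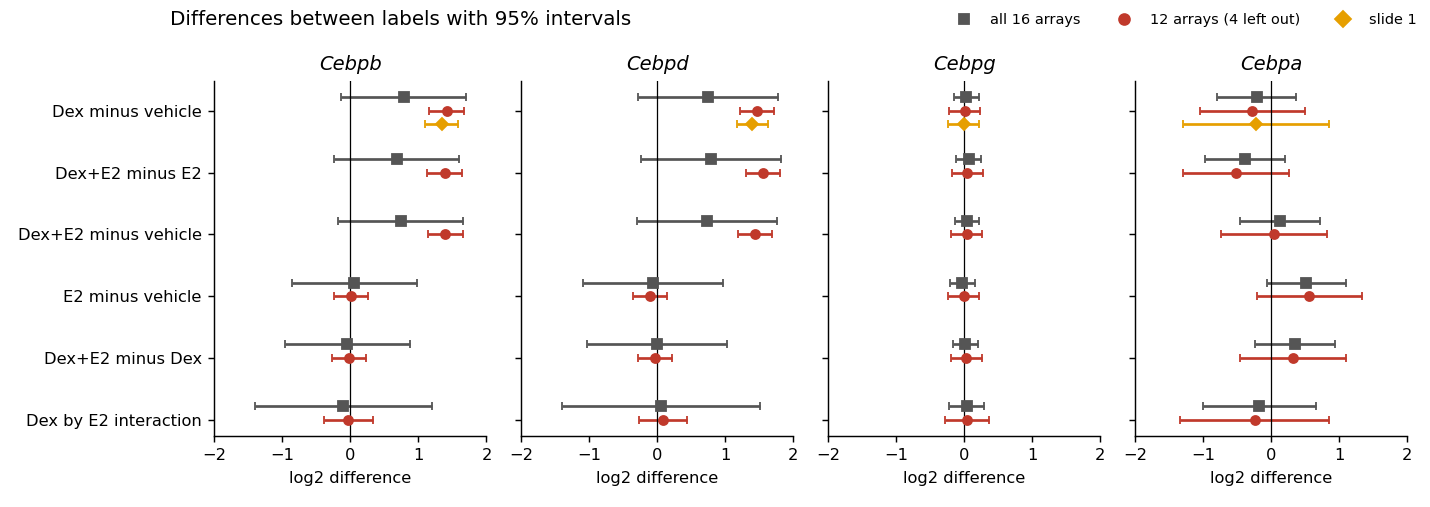
Fitted log2 differences (x axis) of 4 C/EBP genes in 6 comparisons (rows), with 95% intervals, over all 16 arrays (squares), over the 12 arrays left without those whose Per1 went against the label (circles) and within slide 1 (diamonds, Dex and vehicle only). The intervals of Cebpb and Cebpd over 12 arrays lie clear of 0 in the 3 comparisons that add Dex and include 0 in the other 3.

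The genes whose profile over the 16 arrays was most like that of a C/EBP gene were ranked by the root mean square difference of levels centred on each gene's mean, among 12825 genes with a symbol and a value on every array. Nearest to Cebpb were the clock-linked gene Noct (0.144 log2 units), the antiproliferative gene Tob2 (0.150), the RNA-binding protein gene Igf2bp2 (0.166), the endothelin-converting enzyme gene Ece1 (0.179) and Cebpd (0.179). Nearest to Cebpd were Igf2bp2 (0.124), the aldo-keto reductase gene Akr1c14 (0.159), Ece1 (0.163), Cebpb (0.179) and the potassium channel subunit gene Kcnab1 (0.211). Cebpd was thus rank 5 around Cebpb, and Cebpb was rank 4 around Cebpd. Igf2bp2 ranged from -0.77 to -0.41 on the Per1-high arrays and from -2.38 to -1.83 on the Per1-low arrays, and Noct from 3.04 to 3.36 and from 1.65 to 1.94. Around Cebpb, Cebpg had rank 5480, Per1 rank 10026 and Cebpa rank 12241. The distance depends on the size of the differences between arrays as well as on their pattern.

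Relatives of the family were next described from a list of 22 basic leucine zipper genes, of which 21 were tested. Hlf, a factor of the PAR group, was 0.79 ± 0.15 higher with Dex than with vehicle over the 12 arrays (SE, limma adjusted p = 0.0168) and 0.98 ± 0.15 higher with Dex+E2 than with E2 (SE, adjusted p = 0.00453). It ranged from 1.06 to 1.46 on the Per1-high and from 0.25 to 0.90 on the Per1-low arrays. Fosl2, an AP-1 subunit, was 0.64 ± 0.13 higher with Dex+E2 than with E2 (SE, adjusted p = 0.0337). Ddit3, which encodes the dominant-negative partner CHOP, ranged from -0.20 to 0.205 on the Per1-high arrays and from 0.212 to 0.58 on the Per1-low arrays. The sets did not overlap but nearly touched. Of all genes with a value on every array, 4.06% had no overlap. In the Dex comparison over the 12 arrays 1 of 21 relatives was called, where 2.43% of all genes were, and the median difference was -0.02, against -0.04 over all genes tested.

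Among 28 tested genes that regulate C/EBP level or activity, 3 were called with Dex over the 12 arrays, 2 higher and 1 lower, against 2.43% of all genes. Their median difference was -0.08, against -0.04 over all genes. Trib1, whose product directs C/EBPα to degradation, was 0.76 ± 0.15 higher (SE, limma adjusted p = 0.0214). Lifr, the receptor for leukemia inhibitory factor, was 0.58 ± 0.07 higher (SE, adjusted p = 0.000808) and 0.42 ± 0.07 higher with Dex+E2 than with E2 (SE, adjusted p = 0.0063). Rps6ka3, a kinase of the family that phosphorylates C/EBPβ, was lower, with a difference of -0.43 ± 0.09 (SE, adjusted p = 0.0370). Osmr, the oncostatin M receptor, was 0.49 ± 0.10 higher with Dex+E2 than with E2 (SE, adjusted p = 0.0302). In that comparison 2 of the 28 were called, Lifr and Osmr, while Trib1 and Rps6ka3 were not. Nr3c1, which encodes the glucocorticoid receptor, ranged from 1.63 to 1.94 on the Per1-high arrays and from 1.96 to 2.25 on the Per1-low arrays. Its sets nearly touched without overlap. Lifr and Osmr, at 2.26 to 2.40 and 3.34 to 3.56 on the Per1-high arrays and at 1.72 to 1.98 and 2.89 to 3.25 on the Per1-low arrays, did not overlap either. Of all genes with a value on every array, 4.06% had no overlap.

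Genes that C/EBPs are known to bind were described in 4 lists. Of 9 tested acute phase and cytokine genes, 1 was called with Dex over the 12 arrays, against 2.43% of all genes. This was Lrg1, a leucine-rich plasma glycoprotein, 2.09 ± 0.18 higher with Dex (SE, limma adjusted p = 9.09e-05) and 1.97 ± 0.18 higher with Dex+E2 than with E2 (SE, adjusted p = 0.000143). It was also called on slide 1, at 2.36 ± 0.15 (SE, limma adjusted p = 0.0325). Lrg1 ranged from -1.25 to -0.68 on the Per1-high and from -3.29 to -2.69 on the Per1-low arrays. Il6, an inflammatory cytokine, ran the other way without overlap, from -5.49 to -4.66 on the Per1-high and from -4.50 to -3.93 on the Per1-low arrays. The list's median difference with Dex was -0.29 over the 12 arrays, with 3 of 9 above 0, against -0.04 and 41.8% above 0 over all genes.

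Of 17 tested fat cell and metabolic genes, 2 were called with Dex over the 12 arrays, against 2.43% of all genes. Acsl1, a long-chain acyl-CoA synthetase, was 0.54 ± 0.09 higher (SE, limma adjusted p = 0.0111) and 0.58 ± 0.09 higher with Dex+E2 than with E2 (SE, adjusted p = 0.00704). Cd36, a fatty acid transporter, was 0.55 ± 0.10 higher with Dex (SE, adjusted p = 0.0178) but was not called with Dex+E2 against E2. Fabp4, a fatty acid binding protein, ranged from -1.90 to -1.34 on the Per1-high and from -2.85 to -2.02 on the Per1-low arrays. Pparg, the partner of C/EBPα in fat cells, overlapped, at -2.80 to -2.27 and -2.43 to -1.76. The list's median difference with Dex was -0.05, against -0.04 over all genes.

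Of 12 tested upstream factors of fat cell differentiation, 4 were called with Dex over the 12 arrays, against 2.43% of all genes. Per1 is among the 4, and its call was fixed by the choice of the arrays, so 3 of the other 11 were called. This list, like the others, was chosen with earlier results of these data known, so its share of called genes is only a description. Klf15, a glucocorticoid-inducible factor of amino acid and lipid metabolism, was 2.12 ± 0.22 higher (SE, limma adjusted p = 0.000398), and 2.26 ± 0.18 higher on slide 1 (SE, adjusted p = 0.0490). Klf9, another factor with known glucocorticoid induction, was 0.93 ± 0.12 higher (SE, adjusted p = 0.00167). Nr1d1, the clock repressor REV-ERBα, was lower, with a difference of -0.67 ± 0.13 (SE, adjusted p = 0.0216). With Dex+E2 against E2 the 3 differed by 2.20, 0.85 and -0.69, all called. Klf6 ranged from 1.73 to 1.96 on the Per1-high and from 1.35 to 1.62 on the Per1-low arrays.

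Of 11 tested cell cycle genes, 1 was called with Dex over the 12 arrays, against 2.43% of all genes. This was Gadd45a, a growth arrest gene, with a difference of -0.79 ± 0.17 (SE, limma adjusted p = 0.0296). With Dex+E2 against E2, 0 of the 11 were called. Of 10 myeloid granule genes 3 were tested and none was called. In E2 against vehicle and Dex+E2 against Dex none of these 7 lists had a called member by limma, as 0 of all genes had. Over the 16 arrays none had a called member in the Dex comparison either. The named Ddit3, Il6, Nr3c1, Fabp4, Klf6 and Pparg were picked after their values had been seen.

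**Figure D4:**
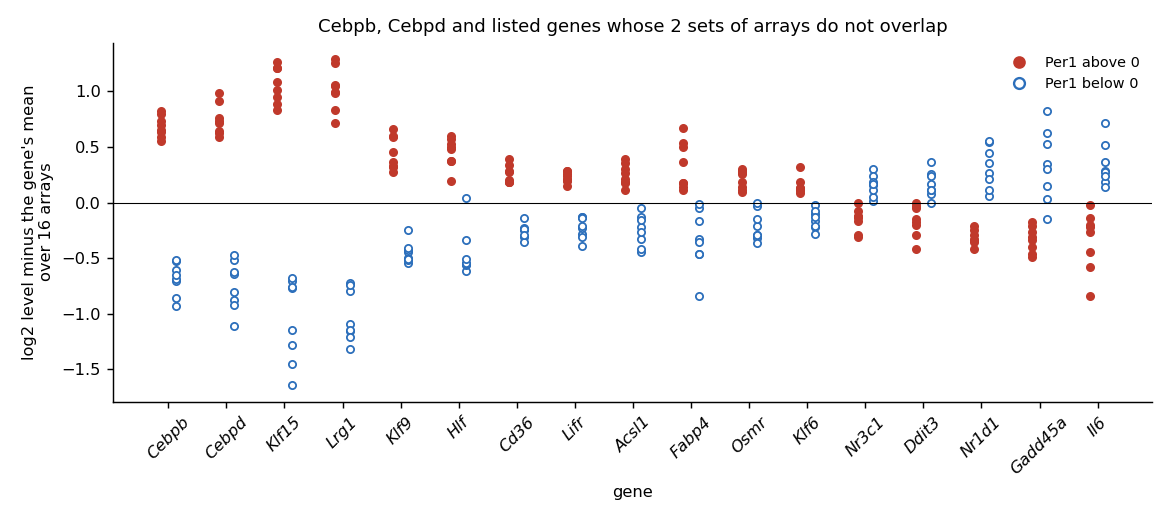
Levels of Cebpb, Cebpd and the listed genes without overlap between the 8 Per1-high arrays (filled) and the 8 Per1-low arrays (open), as log2 level minus the mean of the gene over 16 arrays (y axis), 1 point per array. Klf15 and Lrg1 show wider separations than Cebpb and Cebpd, Klf6, Osmr and Acsl1 narrower ones, and Nr3c1, Ddit3, Nr1d1, Gadd45a and Il6 lie lower on the Per1-high arrays.

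Markers of other cell types were checked beside the difference between the sets. The summed linear level of 9 cardiomyocyte markers ran from 559 to 671 times the 75th percentile on the Per1-high arrays and from 574 to 657 on the Per1-low arrays. Within that list Sln was 1.22 ± 0.17 higher with Dex over the 12 arrays (SE, limma adjusted p = 0.00312) and Gja1 differed by -0.71 ± 0.16 (SE, adjusted p = 0.0479). With Dex+E2 against E2, 1 cardiomyocyte marker was called higher and 0 were called lower. The summed 8 fibroblast markers, mostly Col1a1, overlapped, at 29.0 to 47.9 on the Per1-high and 33.5 to 49.9 on the Per1-low arrays. Of these markers Lum was well above background on 0 of 16 arrays, and Postn and Thy1 on 1 each. The 8 leukocyte markers also overlapped, at 0.154 to 0.191 on the Per1-high and 0.161 to 0.284 on the Per1-low arrays. Of the leukocyte markers Ptprc, Adgre1, Lyz2 and Itgam were well above background on 0 of 16 arrays. The 6 endothelial markers, mostly Kdr, summed to 1.83 to 2.35 on the Per1-high and 1.13 to 1.65 on the Per1-low arrays, without overlap. Among them Kdr and Vwf were well above background on 16 of 16 arrays and Pecam1 and Cdh5 on 0 of 16. Kdr ran from 0.81 to 1.16 on the Per1-high and from 0.05 to 0.67 on the Per1-low arrays, and over the 12 arrays it was 0.60 ± 0.14 higher with Dex (SE, limma adjusted p = 0.0443) and 0.87 ± 0.14 higher with Dex+E2 than with E2 (SE, adjusted p = 0.00561). Vwf overlapped, at -4.58 to -3.46 on the Per1-high and -4.55 to -3.55 on the Per1-low arrays. The 6 fat cell markers, mostly Fabp4, summed to 0.287 to 0.429 on the Per1-high and 0.154 to 0.288 on the Per1-low arrays, which just overlap, with Adipoq, Plin1, Lep and Cfd well above background on 0 of 16 arrays. The part of these markers in the C/EBP differences was not tested. The 75th percentile of the arrays overlapped, at 402 to 557 intensity units on the Per1-high and 437 to 517 on the Per1-low arrays. In RNA from whole cultures, fewer cells of a type and less RNA per cell cannot be told apart.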

How the data were processed

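The 16 scanner files hold intensity values per spot made, per the submitters' processing notes, with Agilent Feature Extraction version 12, and the processed signal is already background-subtracted, per the file headers. A table deposited by the authors for the whole series holds log2 values with a median of 4.698 on every array. How it was normalized is not given in the sources used, and it served as an alternative. Control spots and outlier-flagged spots were left out and spots of a probe averaged, giving 41174 probes. Levels were log2 processed signals from which each array's 75th percentile was subtracted. A probe was kept if, for some label, all 4 arrays showed it well above background (24453 probes), which left 17771 genes. Of these, 13031 had a gene symbol, and 4740 were identifiers on the array without a matched symbol, each counted as a gene. Accessions matched RefSeq (GRCm38.p6) for 28223 probes and 19096 genes.

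Labels were compared with limma 3.58.1 (lmFit, eBayes with a variance trend) in R 4.3.3, with Benjamini-Hochberg adjustment over all 17771 genes, called at 0.05, two-sided. The procedure was tested on simulated data with independent noise and known shifts in the Dex label. No simulated array went against its label, so that test does not cover this feature of the data. P-values measure the spread between these arrays, whose number limits the precision. The 16 arrays lay on 4 slides of 4. Members and gene lists were chosen with earlier results of these data known. Named are the C/EBP genes, Per1, up to 4 called members of each list and the 5 nearest profiles of Cebpb and Cebpd; exceptions are stated. Alternatives were background correction, normalization, filter, the deposited table, variance trend, slide, replicate block, probe, and leaving out arrays. The scanner files have no mean-signal column, so normexp (offset 50) used the median signal, a choice made after seeing the data.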

Additional observations from a re-analysis of the deposited data

Results flagged for a closer look

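In groups of 4 arrays, an array was set apart when its gap to the nearest other array exceeded Dixon's 95% critical share of the group's range, which chance does in about 1 in 20 groups. Of 16 groups tested, for 4 C/EBP genes under 4 labels, 5 had such an array. For Cebpd these were Dex+E2 3 at 3.01, where the nearest other Dex+E2 array had 4.07, Dex 3 at 2.97, where the nearest had 4.11, and Vehicle 4 at 4.40, where the nearest had 2.84. For Cebpb it was Dex 3 at -0.50, where the nearest had 0.67. These values come from the arrays whose Per1 went against the label. The remaining one was Cebpa on E2 1, at -4.24 beside -5.11 on the nearest other E2 array, and Per1 did not go against the label there. Per1 met the same criterion on Dex+E2 3 at -1.11, Dex 3 at -1.15, E2 4 at 1.95 and Vehicle 4 at 1.75, but its levels defined these 4 arrays, so this restates how they were chosen.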

How the results depend on the processing

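Calls depended mainly on which arrays entered. Without the 4 arrays whose Per1 went against the label, 432 genes were called for Dex against vehicle, 460 for Dex+E2 against vehicle and 343 for Dex+E2 against E2, and within slide 1 it was 45, where all 16 arrays gave 0. Cebpb and Cebpd kept a positive difference in the 3 comparisons that add Dex under all alternatives run except within slide 4, where Cebpd was -0.124. Single arrays still moved the size: leaving out 1 array gave 0.627 to 1.11 for Cebpb and 0.569 to 1.17 for Cebpd (Dex against vehicle), 0.576 to 1.07 and 0.559 to 1.16 (Dex+E2 against vehicle), and 0.481 to 1.06 and 0.565 to 1.26 (Dex+E2 against E2). Cebpd reached its highest values without Vehicle 4 in the first pair of comparisons and without E2 4 in the last. The array numbers did not pair the samples by the rule used (all 6 pair correlations over 0.1 for number 4 alone, 0.106 to 0.448). With a replicate block 0 genes were called over 16 arrays and 20 on slide 1, where Cebpb had an adjusted p of 0.0634. Without a variance trend 1 gene was called for E2 against vehicle and 1 on slide 1.

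On slide 1 the count was 80 with normexp and 9 without the filter; leaving out 1 array gave 0 to 6678 calls (6678 without Vehicle 1, 1520 without Vehicle 2, 0 without Dex 1 or Dex 2). Normexp turned Cebpa to 0.135 (Dex against vehicle) and 1.11 (slide 1), and Cebpg to -0.0776 (Dex+E2 against vehicle) and -0.109 (Dex+E2 against Dex). For E2 against vehicle it moved Cebpa to 1.58 (adjusted p = 0.0701) and Cebpd to -0.572. The median level ran from -2.80 to -0.302 across arrays after normexp, against -4.32 to -3.93 with the main scaling.

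Signs of small differences were not stable. Cebpg became -0.114 (Dex+E2 against vehicle) and -0.160 (Dex+E2 against Dex) with slide as a fixed block, -0.0245 (Dex+E2 against Dex) with a random block, -0.00603 within slide 1 (Dex) and -0.213 within slide 3 (Dex+E2 against Dex), and 4e-04 on slide 1 with the deposited table. Within slide 2 Cebpb was -0.591 (E2), and within slide 3 Cebpb was 0.513 and Cebpd 0.594 (Dex+E2 against Dex). With Cebpg probe A_51_P521216 the values were -0.300 (Dex), -0.275 (Dex+E2 against vehicle) and -0.0765 (Dex+E2 against E2), and with A_52_P438082 they were -0.0139, -0.0210 (Dex+E2 against vehicle) and -0.00712 (Dex+E2 against Dex).

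Leaving out 1 array moved Cebpg between -0.0154 and 0.0653 (Dex), -0.0658 and 0.00509 (E2), -0.0201 and 0.0952 (Dex+E2 against vehicle), -0.0480 and 0.0673 (Dex+E2 against Dex), -0.0223 and 0.0930 (interaction) and -0.0678 and 0.0557 (slide 1). It moved Cebpb between -0.319 and 0.386 (E2), -0.349 and 0.286 (Dex+E2 against Dex) and -0.431 and 0.275 (interaction), and Cebpd between -0.530 and 0.360, -0.312 and 0.274, and -0.370 and 0.520 in the same order. For both genes the ends came without E2 4 and Vehicle 4 (E2), Dex 3 and Dex+E2 3 (Dex+E2 against Dex), and Vehicle 4 and E2 4 (interaction). It moved Cebpa between 0.277 (without E2 1) and 0.692 (E2), -0.0139 and 0.341 (Dex+E2 against vehicle), -0.346 and 0.0703 (interaction) and -0.701 and 0.255 (slide 1). The cause of these changes was not tested. Signal over background limits Cebpa, at 7.18 to 26.4 intensity units.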
